A study of Mus musculus with 4 samples.

Results

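The BCL2 family decides at the outer membrane of the mitochondrion whether a cell lives or dies. Pro-survival members hold the membrane closed, and effectors such as BAK open it so that cytochrome c escapes and caspases are activated. BH3-only members carry stress signals by binding pro-survival members, and some of them also bind effectors. Survival of naive CD4 T cells, helper cells at rest before any contact with antigen, is known to rest on BCL2 and MCL1, while BIM, the product of Bcl2l11, is a main death signal when cytokines are withdrawn. The genes described here are 10 members of the family: the pro-survival genes Bcl2, Bcl2l1, Bcl2l2 and Mcl1, and the pro-death genes Bcl2l11, Bid, Bad, Bmf and Bik (BH3-only) and Bak1 (effector). All 10 were found among the 21887 protein-coding genes on the assembled chromosomes of the RefSeq table for GRCm38.p6, the assembly that mm10 names.

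The series measured open chromatin by ATAC-seq, in which a transposase inserts adapters into DNA that is free of nucleosomes. Naive CD4+ T cells came from spleen and pLN of mice of genotype WT (2 libraries) or DDX55 KO (2 libraries); Ddx55 encodes an RNA helicase. The labels state no strain, age, Cre driver or number of animals. The deposited list analysed here holds 64525 accessible regions joined over the 4 libraries on mm10, as positions alone, without a value for any library. Neither depth per library nor the difference between genotypes could therefore be given, every value below pools both genotypes, and no standard deviation or test between groups was possible. The label was checked against markers, where 52.6% of all protein-coding genes had a region within 1 kb of a gene end. All 5 genes given here for naive CD4 T cells had one (Cd3e, Cd4, Tcf7, Lef1 and Ccr7, of which all but Cd4 are shared with CD8 T cells), against 1 of 2 CD8 T cell genes (Cd8b1), 0 of 4 B cell genes, 0 of 3 myeloid genes and neither end of the liver gene Alb. The B cell windows were not empty: that of Cd79a held 5 regions, and 5 overlapped the gene body of Pax5.

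Each member was given a window of its gene body and 30 kb on either side, and regions overlapping it by at least 1 bp were counted. The 10 windows covered 983 kb and held 89 regions, none of them in more than 1 window. Each of the 10 windows held a region, as did 86.6% of those of all protein-coding genes. Counts ran from 3 at Bid to 22 at Bcl2, with a median of 7 per member against 3 per protein-coding gene. Because windows differ in length, density is given as regions per 100 kb of window. By density Mcl1 came first with 15.1, followed by Bmf with 12.4, Bcl2l1 with 10.4, Bak1 with 10.2, Bad with 9.99, Bcl2 with 9.32, Bik with 7.71, Bcl2l11 with 6.22, Bcl2l2 with 5.93 and Bid with 3.57. The order is a description, since no library values exist to tell neighbours in it apart. The median of all protein-coding genes was 3.56 and their upper quartile 6.15. Density was above that quartile at 8 of 10 members (25% of all genes by construction) and above the median of genes of like length at 9 of 10 (50% of all genes). Bid was the exception to the latter, with 3.57 against 3.88, and Bcl2l2 and Bid were the 2 members under the upper quartile.

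**Figure D1:**
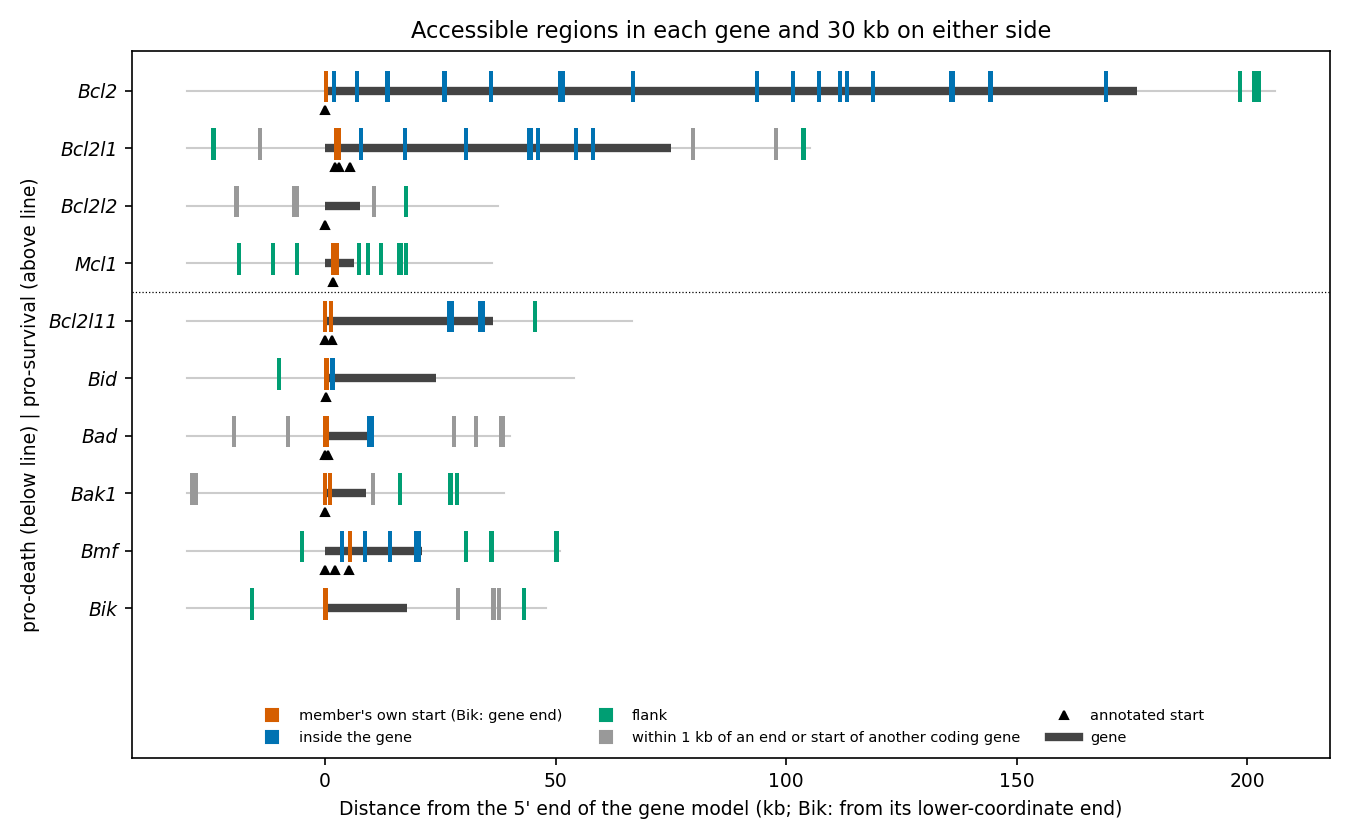
Accessible regions in the window of each member, drawn by distance in kb from the 5′ end of the gene model (for Bik, from its lower-coordinate end), with the gene as a dark bar, annotated starts as triangles and regions as ticks coloured by place (narrow regions are drawn at a minimum width). Bcl2 and Bcl2l1 hold most of their regions inside the gene, Mcl1 holds 8 of 10 in its flanks, and no tick lies on the gene body of Bcl2l2.

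Of the pro-survival genes, Bcl2 encodes the founding inhibitor of mitochondrial death and is the longest member. The gene lies at chr1:106538176-106714290, runs on the minus strand and spans 176.1 kb. Its window held 22 regions, of which 19 overlapped the gene, 3 lay in the downstream flank and 0 in the upstream flank. Regions were spread along the whole gene, from one that covered the start (chr1:106713689-106714462, 774 bp wide) to one 169 kb from it. Between neighbours among the 19, the median gap was 6.68 kb and the widest 26.6 kb. The widest region was 1135 bp, at chr1:106569417-106570551 inside the gene and 144 kb from the start. Genes of like length (the same 1 of 10 length bins) had a median density of 2.17, against 9.32 at Bcl2, and 98.7% of them had a lower density. That bin is wide, from 108526 to 2390387 bp, and Bcl2 lies near the short end of that range.

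The Bcl2 start region reached 172 of the 250 bases before the annotated start. Those 250 bases are shown because this promoter window was the most CpG-rich of the 15 of the family; they are at chr1:106714291-106714540, minus strand, written 5′ to 3′, from RefSeq on GRCm38.p6 as are all sequences below. Capitals mark GGGCGG (the SP/KLF box) or its reverse complement and TGACGT (the core of a cyclic AMP response element).
Bcl2: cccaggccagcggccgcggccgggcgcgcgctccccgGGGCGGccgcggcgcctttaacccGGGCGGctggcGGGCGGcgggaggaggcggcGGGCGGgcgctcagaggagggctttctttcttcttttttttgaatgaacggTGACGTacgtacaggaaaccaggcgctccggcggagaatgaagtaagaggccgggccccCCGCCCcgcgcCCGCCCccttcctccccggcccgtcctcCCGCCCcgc
The SP/KLF letters occurred 7 times, and the cyclic AMP response core occurred once, with its first base at position -107, where -1 is the base just before the start. At least 1 SP/KLF match was present in 46.2% of the 21263 promoter windows (300 bases each) of protein-coding genes, and the cyclic AMP response core in 8.49%.

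Bcl2l1, which encodes BCL-XL, a survival factor known best in activated and immature T cells, had 14 regions in its window and 9 overlapping the gene (chr2:152758732-152833803, minus strand). One region of 1408 bp (chr2:152830402-152831809) covered 2 of its 3 annotated starts. The third start, at 152828489, lay 1.91 kb from that region and had none within 1 kb. Inside the gene, 8 further regions lay 2.37 to 52.5 kb from the nearest start, the widest of them 685 bp at chr2:152789275-152789959. That region was separated by 13 bp from its neighbour, the closest pair in any member window. In the flanks, 3 of 5 regions lay at ends of other genes: Id1, Cox4i2 and Tpx2.

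Mcl1 encodes a short-lived survival protein that T cells need at all stages. The gene is short (chr3:95656944-95663179, plus strand, 6236 bp), and its window held 10 regions in 66.2 kb. Of these, 2 regions lay at the start (chr3:95658450-95658879, 430 bp, over the start itself, and chr3:95659284-95659655, 372 bp) and 8 lay in the flanks, 3 upstream and 5 downstream. The 5 downstream regions followed one another within 10.7 kb, from chr3:95664169 to 95674843. The widest of them, 1108 bp at chr3:95672625-95673732, began 9.45 kb past the gene. None of the 8 flank regions lay within 1 kb of an end of another protein-coding gene. The density of Mcl1 exceeded that of 99.4% of all protein-coding genes.

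The start region of Mcl1 covered all 250 bases before the annotated start. A pair of 30-base stretches of it is shown because each holds CGGAAG, the core of the site of ETS factors (in capitals), at positions -86 and -62; a stretch before the middle start of Bcl2l1 holds the same letters at -103.
Mcl1, chr3:95658623-95658652, plus strand: caaccgtagccgCGGAAGccgcgagagcgc
Mcl1, chr3:95658647-95658676, plus strand: gagcgctccggcCGGAAGaggcgcggagtg
Bcl2l1, chr2:152830803-152830832, minus strand: cctttagggtttCGGAAGcctcatctaggg
The ETS letters were present in 21.1% of protein-coding promoter windows, in 33.7% of those with a region within 1 kb of the start and in 7.22% of those without.

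Bcl2l2 encodes BCL-W, a survival factor with known roles in testis and gut. It differed from the other pro-survival genes in having no region in the gene body (chr14:54883366-54890858, plus strand) and none within 1 kb of its annotated start; the other 9 members had a region inside the gene, as did 65.5% of all protein-coding genes. The nearest region lay 5.79 kb from the start. Of the 4 regions in the window, 3 lay at an end or start of another gene: Homez, Ppp1r3e, and Pabpn1, which encodes a poly(A)-binding protein. The fourth was 307 bp wide, 9.82 kb past the gene (chr14:54900677-54900983).

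The bases before the Bcl2l2 gene are shown as a pro-survival promoter outside any region (chr14:54883175-54883365, plus strand, 191 bases), with its single SP/KLF match in capitals.
Bcl2l2: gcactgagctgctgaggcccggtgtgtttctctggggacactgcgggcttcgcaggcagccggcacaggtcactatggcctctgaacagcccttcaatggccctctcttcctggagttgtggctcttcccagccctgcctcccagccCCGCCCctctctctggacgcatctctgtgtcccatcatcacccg
The whole 300-base window held 9 CpG dinucleotides, against 44 at Bcl2 and 33 at Mcl1.

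Of the pro-death genes, Bcl2l11 encodes BIM, a BH3-only protein that binds all pro-survival members. Its window held 6 regions, of which 5 overlapped the gene (chr2:128126038-128162547, plus strand). Both annotated starts were covered, by regions of 617 bp (chr2:128125684-128126300) and 553 bp (chr2:128127036-128127588). These also lay within 1 kb of an end of Acoxl, which overlaps the start of Bcl2l11. Inside the gene, a region of 1374 bp at chr2:128152514-128153887 lay 24.9 kb from the nearest start. It was the widest region away from gene ends and starts in any member window, and 99.5% of the 50945 such regions of the list were narrower. A further pair, 879 and 264 bp wide, lay 31.7 and 32.6 kb from the start, with a gap of 111 bp.

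The 250 bases before the first Bcl2l11 start were wholly inside a region (chr2:128125788-128126037, plus strand). They are shown because FOXO factors are known activators of this gene, and the letters GTAAACA, the core of a FOXO site, occurred at position -227; capitals also mark SP/KLF, ETS (reverse strand, CTTCCG) and CCAAT box (reverse strand, ATTGG) matches.
Bcl2l11: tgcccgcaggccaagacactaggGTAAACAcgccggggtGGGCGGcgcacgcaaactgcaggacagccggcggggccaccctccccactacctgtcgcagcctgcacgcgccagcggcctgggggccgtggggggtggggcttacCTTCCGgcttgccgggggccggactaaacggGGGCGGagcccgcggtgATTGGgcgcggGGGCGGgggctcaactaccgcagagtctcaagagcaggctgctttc
The FOXO letters were present in 3.01% of protein-coding promoter windows and in no other of the 15 member windows. A match describes letters and not a bound site.

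Bmf encodes a BH3-only protein linked to cytoskeletal stress and had the highest counts of the pro-death genes, with 10 regions, 6 of them in the gene (chr2:118528757-118549686, minus strand). Its regions had a median width of 263.5 bp, near the median of 262 bp for regions of the list away from gene ends. The widest, 4.66 kb upstream of the gene at chr2:118554343-118554957, was 615 bp. No other protein-coding gene lay in its window. Of its 3 annotated starts, 1 had a region within 1 kb: a region of 315 bp (chr2:118544207-118544521) lay 66 bp past the start at 118544587. The starts at 118547599 and 118549686 were 1.32 and 3.41 kb from the nearest region.

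The bases before the outermost Bmf start are shown as a promoter outside any region (chr2:118549687-118549936, minus strand). Capitals mark CCAAT or its reverse complement ATTGG, the CCAAT box, at positions -159, -88 and -34.
Bmf: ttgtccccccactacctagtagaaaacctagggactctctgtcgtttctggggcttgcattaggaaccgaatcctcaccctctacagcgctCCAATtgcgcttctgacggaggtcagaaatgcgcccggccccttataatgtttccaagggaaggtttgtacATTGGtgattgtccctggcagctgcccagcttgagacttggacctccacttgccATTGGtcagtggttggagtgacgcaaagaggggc
The CCAAT letters were present in 38.2% of protein-coding promoter windows.

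Bak1 encodes the effector BAK, which forms pores in the outer membrane. Its window held 7 regions, with 2 at the start of the gene (chr17:27019812-27028627, minus strand). One, of 780 bp, covered the start (chr17:27028245-27029024) and also lay at a start of Ggnbp1, which overlaps Bak1, so the region cannot be assigned to either gene; the other, of 594 bp, lay 0.702 kb inside the gene. A region of 1752 bp at the start of Itpr3, the gene of an inositol trisphosphate receptor, was the widest of all 89. Outside these and 1 more at Ggnbp1, 3 regions of 116 to 671 bp lay in the downstream flank. The 250 bases before the start, wholly inside a region, are shown with their TGTGGT, the core of a RUNX site, at -221 in capitals (chr17:27028628-27028877, minus strand).
Bak1: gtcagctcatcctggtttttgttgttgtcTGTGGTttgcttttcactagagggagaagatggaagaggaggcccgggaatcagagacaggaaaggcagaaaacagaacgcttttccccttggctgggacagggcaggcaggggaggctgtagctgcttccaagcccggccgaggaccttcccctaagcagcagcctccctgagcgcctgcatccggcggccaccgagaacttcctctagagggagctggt
The RUNX letters were present in 15.0% of protein-coding promoter windows.

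Bad encodes a BH3-only protein that growth factor signals switch off by phosphorylation. Its window also held 7 regions, in the most gene-dense surroundings of any member, with 8 other protein-coding genes. One region of 1271 bp covered both annotated starts (chr19:6941335-6942605) and the start of Gpr137. Another, 1654 bp wide (chr19:6950852-6952505), covered the 3′ end of the gene. The other 5 all lay at an end or start of another gene, so no region in this window lay away from gene ends. The 250 bases before the first Bad start (chr19:6941611-6941860, plus strand), wholly inside a region, are shown for comparison with Mcl1, since they too hold the ETS letters. Capitals mark ATGGCG (the core of a YY1 site), SP/KLF matches and an ETS match on the reverse strand at -26 that overlaps an SP/KLF match at -23.
Bad: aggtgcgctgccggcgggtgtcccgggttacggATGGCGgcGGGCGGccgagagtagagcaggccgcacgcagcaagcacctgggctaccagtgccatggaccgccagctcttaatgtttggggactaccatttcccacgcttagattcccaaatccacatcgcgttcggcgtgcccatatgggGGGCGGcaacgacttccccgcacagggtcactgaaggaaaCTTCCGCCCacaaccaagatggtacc
The YY1 letters were present in 10.9% of protein-coding promoter windows.

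The remaining pro-death genes were Bid and Bik. Bid encodes the BH3-only protein that caspase-8 cleaves to link death receptors to the mitochondrion. It had 3 regions: 1105 bp over its start (chr6:120916245-120917349), 110 bp 1.29 kb from the start inside the gene, the narrowest of all 89, and 547 bp in the upstream flank at chr6:120926760-120927306. Bik, which encodes a BH3-only protein of the endoplasmic reticulum, had 6 regions. One, of 1059 bp, lay over the end of the gene with the lower coordinate (chr15:83526351-83527409; gene chr15:83526790-83544635). Of the other 5, 3 lay at ends of the neighbours Mcat and Tspo. Bik had no entry in the promoter table.

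**Figure D2:**
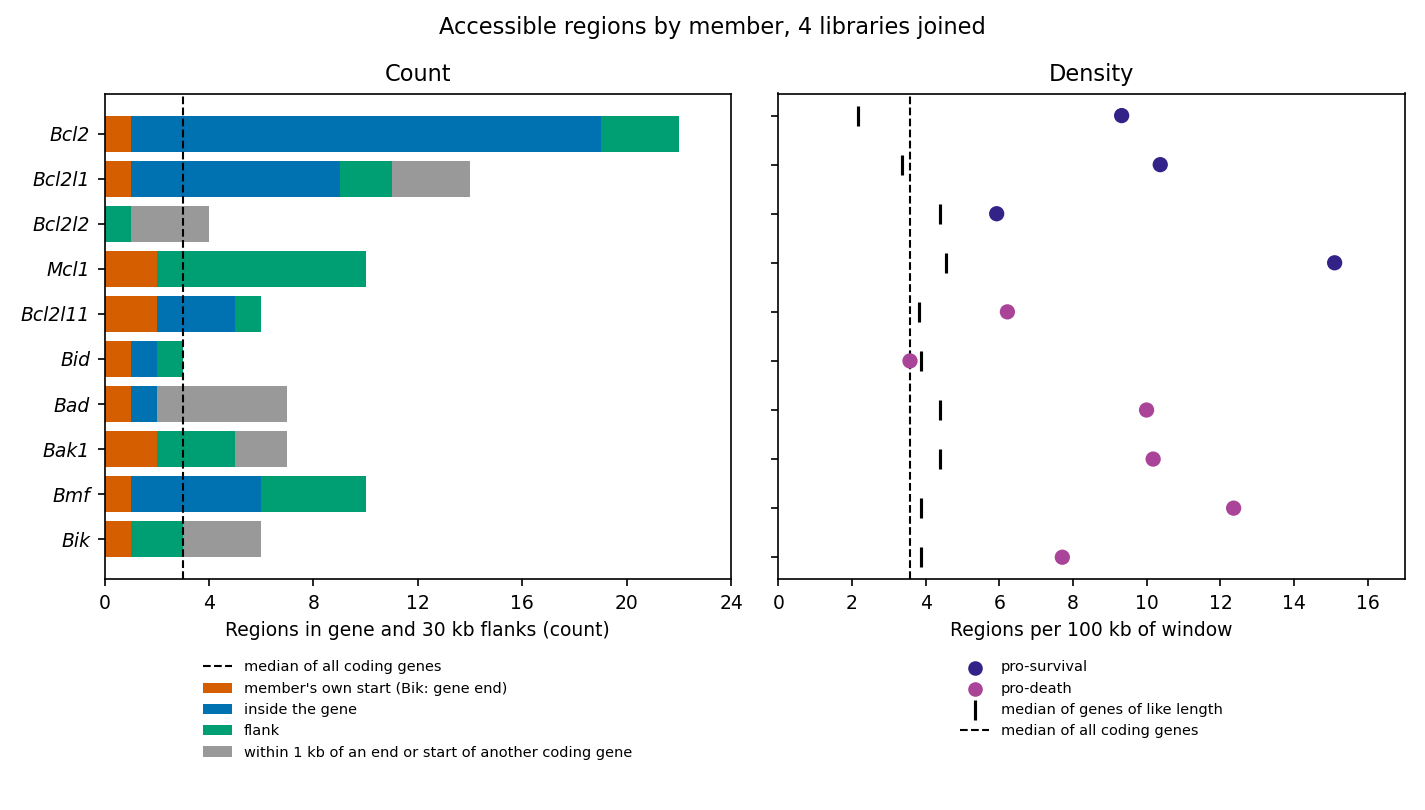
Left, regions per member window as bars split by place; right, regions per 100 kb of window as points (blue, pro-survival; purple, pro-death), with the median of genes in the same length bin as a tick and the median of all protein-coding genes as a dashed line. Bcl2 leads by count with 22 and Mcl1 by density with 15.1, and Bid lies at the dashed line.

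The 4 pro-survival windows held 50 regions in 505 kb, or 9.90 per 100 kb, and the 6 pro-death windows held 39 regions in 478 kb, or 8.16 per 100 kb. Counts per gene had medians of 12 (range 4 to 22) and 6.5 (range 3 to 10), but the pro-survival genes were longer, with median lengths of 41282.5 and 19388 bp. The density ranges, 5.93 to 15.1 and 3.57 to 12.4, overlapped for most of their length. The difference in density, 1.75 per 100 kb, was small beside the spread within each class, fell to 0.961 without Mcl1 and to 0.769 without Bid, and turned to -3.92 when counted in gene bodies alone (11.3 against 15.2). The share of window bases inside a region was also close, at 5.01% and 4.83%, with a median of 1.79% over all protein-coding genes.

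The share of regions by place was then counted. In pro-survival windows 26 of 50 regions (52%) lay inside the gene away from its start, and 6 (12%) at an end or start of another gene. In pro-death windows the corresponding counts were 10 of 39 (25.6%) and 10 (25.6%). Gene bodies made up 52.5% of the pro-survival and 24.7% of the pro-death window length, so the shares inside genes were close to the shares of length there. The 26 regions were 18 at Bcl2 and 8 at Bcl2l1, with 0 at Mcl1 and Bcl2l2; without Bcl2, 8 of 28 (28.6%) lay inside the gene and 6 (21.4%) at other genes. Start regions, counted for Bik at its gene end, were 4 (8%) and 8 (20.5%). With start regions and those of other genes left out, density was 7.92 per 100 kb in pro-survival and 4.39 in pro-death windows, a ratio of 1.80 that ran from 1.61 without Bcl2 to 2.62 without Bmf. This density was not a planned result. Leaving out single members was its only alternative, and other flanks, widths and gene bodies alone were not tried for it. By member the same density was 12.1 at Mcl1, 11.1 at Bmf, 8.89 at Bcl2 and 7.40 at Bcl2l1, and 4.36 or less at the other 6, so Bmf ranked with the survival genes and Bcl2l2, at 1.48, with the death genes. The pro-death windows held 5.44 ends of other protein-coding genes per 100 kb and the pro-survival windows 3.56. This order rested on single members: 15 of the 26 pro-death ends lay at Bad, without which the value was 2.70, and without Bcl2 the pro-survival value was 6.32. The part of other genes in the difference was not tested. Members are not replicates and were chosen with results known, so no p-value is given.

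A region lay within 1 kb of an annotated start at 8 of the 9 members with a start in the promoter table, against 53.7% of the 17492 protein-coding genes with one. Bcl2l2 was the exception. Over the 15 annotated starts of these genes, 11 had such a region; the other 4 were the starts of Bcl2l2, 1 of 3 at Bcl2l1 and 2 of 3 at Bmf. Counted at either end of the gene, 8 of 10 members had a region within 1 kb, against 52.6% of all protein-coding genes; Bcl2l1 and Bcl2l2 had none, as the starts of Bcl2l1 lie inside its longer gene model.

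**Figure D3:**
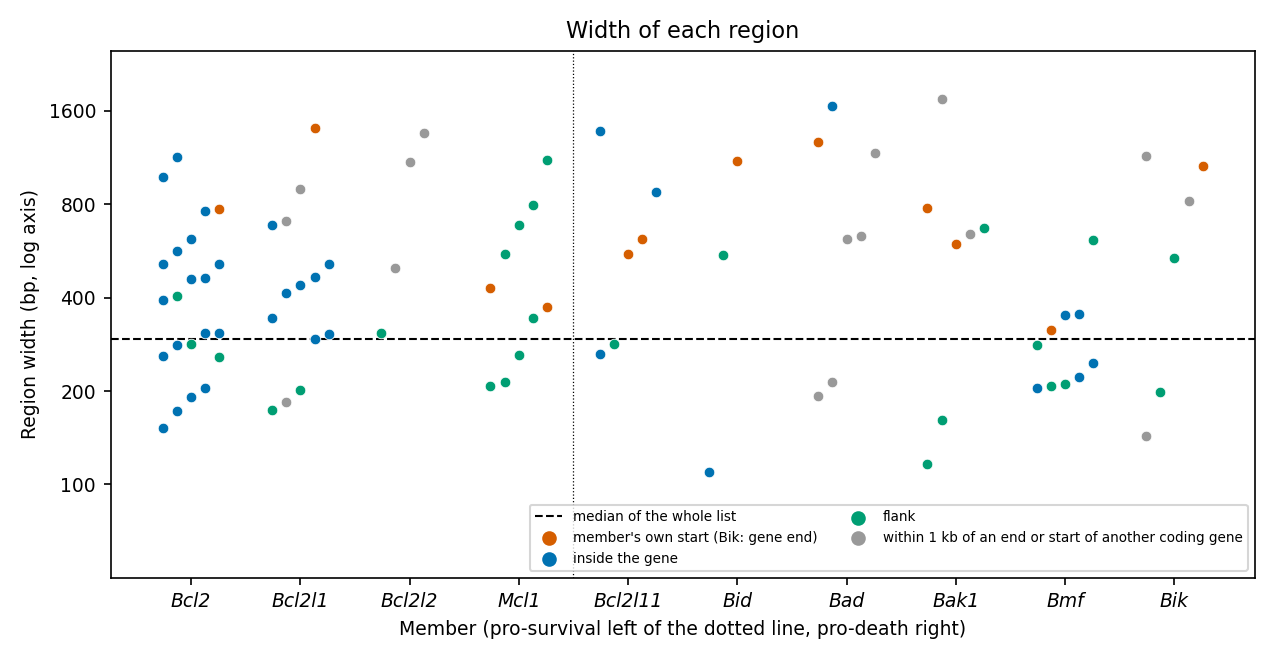
Width of each of the 89 regions in bp on a log axis, by member and coloured by place, with the median of the whole list (294 bp) as a dashed line. Most points of Bmf lie under the line and none exceeds 615 bp, while 3 regions away from gene ends, at Bcl2, Mcl1 and Bcl2l11, exceed 1000 bp.

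Regions at starts and at ends of other genes had larger median widths than those inside genes or in flanks. The 12 start regions had a median of 695.5 bp, the 16 at other genes 675 bp, the 36 inside the genes 373.5 bp and the 25 in flanks 283 bp. The list as a whole had medians of 715 bp within 1 kb of a gene end and 262 bp elsewhere. Away from all gene ends and starts, 58 regions lay in the member windows, and 3 of them (5.17%) were at least 1000 bp wide, against 2.21% of such regions of the list. The cut of 1000 bp was not planned and had no alternative, and 3 regions are too few to tell the shares apart. They were the regions at Bcl2, Mcl1 and Bcl2l11 described above, of 1135, 1108 and 1374 bp. The widest such region of the remaining members was 685 bp at Bcl2l1, 671 at Bak1, 615 at Bmf, 547 at Bid, 537 at Bik and 307 at Bcl2l2, and Bad had none.

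**Figure D4:**
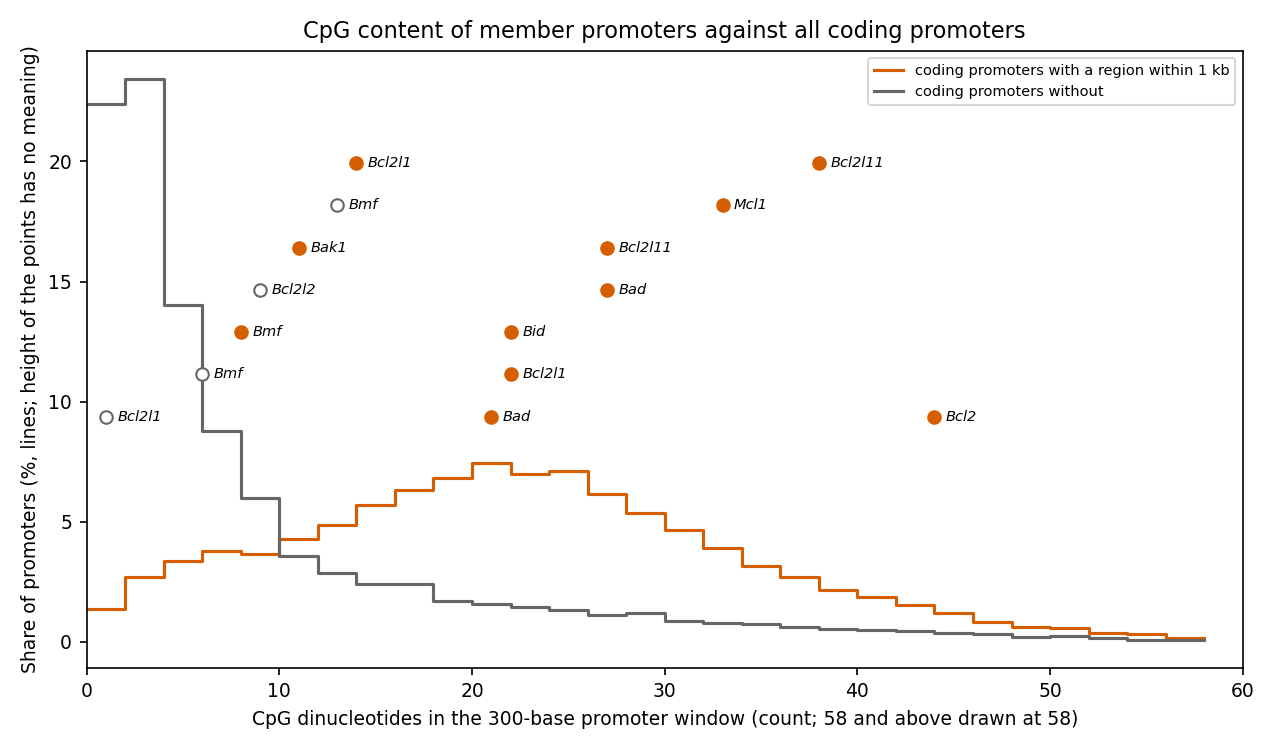
CpG dinucleotides in the 300-base promoter window, as the share of protein-coding promoters with (orange line) and without (grey line) a region within 1 kb of the start, with the 15 member windows as points (filled, with a region; open, without; their height has no meaning). The 4 open points lie at 13 or fewer CpG and the filled points run from 8 at Bmf to 44 at Bcl2.

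Member promoters with a region held more CpG dinucleotides than those without. The 11 windows with a region had a median of 22 (range 8 to 44) and the 4 without had a median of 7.5 (range 1 to 13). The corresponding medians over all protein-coding promoter windows were 21 (n = 11154) and 4 (n = 10109). The ranges of the member windows overlapped: Bmf at 118544587, with 8, and Bak1, with 11, had a region, whereas the outermost Bmf start, with 13, did not. Both classes held CpG-rich promoters, with 44 at Bcl2 and 33 at Mcl1, and 38 and 27 at the 2 starts of Bcl2l11.

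Among the 14 motifs searched on both strands of these 300-base windows, SP/KLF letters were found at 7 of 9 members, ETS letters at 4 (Mcl1, Bcl2l1, Bcl2l11 and Bad) and CCAAT boxes at 3 (Bcl2l11, Bad and Bmf). Counted over windows, SP/KLF letters were in 8 of 15 (53.3%), against 46.2% of all protein-coding promoter windows and 66.2% of those with a region at the start. ETS letters were in 5 of 15 (33.3%), against 21.1% and 33.7%, and CCAAT boxes in 5 of 15 (33.3%), against 38.2% and 38.7%. These shares were near the background, and starts of the same gene can share sequence. ETS letters were found in both classes. RUNX letters were found at Bak1 and Bmf. The cyclic AMP response core was found at Bcl2, the FOXO letters at Bcl2l11 and the YY1 letters at Bad. Of 7 further motifs, no member window held the letters. The share of protein-coding promoter windows holding them was 14.4% for CTTTGA, the core of a TCF/LEF site, and 5.95% for the E2F motif GCGGGAA. It was 6.99% for the AP-1 motif TGANTCA, and 7.69% for a STAT motif written as TTCNNNGAA. The share was 7.84% for CACGTG, an E-box, and 4.44% for CGCATGC, a core of the NRF1 motif. For the TATA box, searched as TATAAA, it was 12.6%. This says only that those letters are not in these windows.

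Other genes of the pathway were counted in 3 lists, which too were chosen with earlier results known. Over all protein-coding genes, 53.7% of those with a start entry had a region there, and the median density was 3.56 per 100 kb. The 15 other BCL2 family genes had a median of 4 regions per window and 4.48 per 100 kb, and 8 of 12 with a start entry had a region there. Counts ran from 1 to 8, with the most at Bcl2a1d (8), and at Bcl2a1b and Bbc3 (7 each). Bcl2a1d and Bcl2a1b belong to a cluster of near-identical survival genes, so read placement there is uncertain; Bbc3 encodes PUMA, a BH3-only protein induced by p53. Bok and Hrk, an effector and a BH3-only gene, had 1 region each in the window and none in the gene. This list is not wholly separate from the members, since the window of Bcl2l13 overlaps that of its neighbour Bid and shares regions with it.

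Of the 14 genes that act after the membrane opens (cytochrome c, the apoptosome, caspases and their inhibitors), 11 of 11 with a start entry had a region there, against 53.7% of all protein-coding genes with one. Their median was 5 regions per window and 4.96 per 100 kb, against 3.56 per 100 kb over all protein-coding genes. Birc3, which encodes an inhibitor of apoptosis protein, had 8, and its neighbour Birc2, Cycs (cytochrome c) and Htra2 had 6 each; the windows of Birc2 and Birc3 overlap. Of the 14 regulators of family genes in T cells, 13 of 13 with a start entry had a region there, with a median of 6.5 regions and 6.32 per 100 kb. Jak1, a kinase of cytokine receptors that include the interleukin-7 receptor, had 20 regions, 11.5 per 100 kb. Stat5b, a transcription factor of the same pathway, had 14, and the forkhead gene Foxo1 and the ubiquitin ligase gene Fbxw7 had 8 each. The window of Stat5b overlaps that of its neighbour Stat5a, which is also on this list. The median of the 10 members was 9.66 per 100 kb, and that of the 5 naive CD4 T cell markers was 13.2. The ranges overlapped, since Jak1, and Bcl2a1d with 11.7, exceeded all members but Mcl1 and Bmf.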

How the data were processed

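ATAC-seq was performed on 4 libraries, 2 of genotype WT and 2 of DDX55 KO. Per the submitters' processing notes, the tools were MACS3 3.0.0b1, Bowtie2, fastp 0.12.4 and SAMtools 1.15.1, and the build was mm10. Settings, peak threshold and how peaks were joined are not given in the sources read. In all, the authors deposited 1 list of regions with 3 columns (sequence name, start and end in bp) and no count, score or library value, so depth and precision per library are unknown and narrow regions cannot be weighed. Starts were converted to 1-based positions.

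Genes came from a RefSeq table of GRCm38.p6; starts, strand and promoter sequences (250 bases before to 50 after a start) came from RefSeq for 9 of 10 members. Windows were the gene and 30 kb on either side. A region counted by an overlap of at least 1 bp, and as lying at a start or end within 1 kb of it. A region near a member's own start was placed there first, then at another gene's end or start, then in the gene or flank. Genes were ranked within 10 bins of gene length. Motifs were searched as exact letters. Overlap counting was tested on simulated data. The genotype comparison and protein sequences were not analysed here, and 1 planned marker gene is not reported here. All 10 members are named; of other lists, the 3 genes with the most regions (with ties), and of each member the start regions and the widest region away from gene ends. Any other gene or region named was picked once its values were known. Members and lists were chosen with earlier results of these data known. Alternatives were other flanks, overlap rules, widths, merging, and members left out. Analyses used Python 3.11.15, pandas 2.3.3, numpy 2.4.6 and matplotlib 3.10.9.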

Additional observations from a re-analysis of the deposited data

How the results depend on the processing

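The density of pro-survival windows stayed within 1.5 times its value of 9.90 per 100 kb in all 20 alternatives (6.93 to 11.3), and that of pro-death windows in 18 of 20; the exceptions were 15.2 in gene bodies alone and 5.02 with regions of at least 300 bp. Leaving out a member of either class could not change the density of the other class, so both counts include outcomes fixed in advance. The difference between the classes (1.75) was above 0 in 19 of 20 alternatives and -3.92 in gene bodies alone. It was 0.807 with flanks of 10 kb, 0.774 with 50 kb, 0.478 with 100 kb and 0.991 as medians over genes. It was 2.63 without regions at the members' own starts and 3.26 without any region within 1 kb of an end of another gene. The latter alternative did not place regions at a member's own start first. It therefore also removed start regions of Bcl2l11 and Bad, both pro-death, that lay near ends of other genes. Bcl2l11 went from 6 regions to 4 and Bad from 7 to 2. Without Mcl1 the difference was 0.961 and without Bid 0.769. The reasons for these shifts were not tested. The 7 alternatives that left out Bmf, Mcl1, Bcl2l1, Bcl2l2, Bid, Bad or Bik were added after seeing the data. The number of members with a region at a start was 8 in all 4 alternatives, but not always of the same members. Counted at either gene end, Bik entered and Bcl2l1 dropped out. That alternative takes in 3′ ends, and Mcl1 and Bmf passed it by their 3′ end alone, so its 8 is not a count of starts. No paired analysis was possible because the list carries no value per library, so neither a replicate block nor leaving out a library could be run. For the same reason depth, library and genotype behind any region are unknown, and a region missing from the list may lie under a threshold that the sources used here do not give.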
